A study of Sus scrofa with 4 samples.

Results

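Citrate synthase (CS), the mitochondrial NADP-dependent isocitrate dehydrogenase (IDH2), the catalytic subunit of the NAD-dependent isocitrate dehydrogenase (IDH3A), the E1 subunit of 2-oxoglutarate dehydrogenase (OGDH), the alpha subunit of succinyl-CoA ligase (SUCLG1), fumarase (FH) and the mitochondrial malate dehydrogenase (MDH2) are enzymes of the citric acid cycle. These 7 genes were chosen by name, and all 7 were found, with 1 entry each, among the 18208 genes of a table of RNA levels in pig longissimus dorsi, the long muscle of the back. RNA came from 4 breeds with 1 library each. The indigenous Chinese type was represented by Diannan Small Ear pigs (DSP) and Tibetan pigs (TP), and the introduced type by Landrace (LL) and Yorkshire (YY) pigs. Breeds served as the 2 replicates of their type. The series looked for genes of growth and lipid deposition. The labels used here give no age, sex or feeding of the pigs and no number of animals behind a library, so p-values measure the spread between these libraries only.

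The cycle burns the acetyl groups that come from sugar, fat and amino acids, and hands the electrons to the respiratory chain. It runs in the matrix of the mitochondrion, so fibres rich in mitochondria carry more of its enzymes, and citrate synthase activity is a common measure of mitochondrial content in muscle. Its intermediates also serve outside the cycle. Citrate leaves it for fatty acid synthesis, and malate takes part, with aspartate, in the shuttle that carries reducing power into mitochondria.

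Levels are FPKM, fragment counts divided by transcript length and library size, as deposited, so they can be set side by side between genes. The sources used here give neither read counts nor sequencing depth, and no counting error could be computed. The libraries differed as wholes. The FPKM of all genes summed to 1450760 for DSP and 880279 for TP, against 1067280 for LL and 1226120 for YY. Loci shorter than 300 bp outside the mitochondrial genome took 20.6% of the DSP sum and 1.39% of the TP sum, against 17.7% for LL and 5.55% for YY. The 7 enzymes made up 0.124% of the sum in DSP and 0.175% in TP, against 0.107% in LL and 0.157% in YY. The muscle label fits the markers: ACTA1, the skeletal muscle actin, had 39517 FPKM in DSP and 47397 in TP, against 16778 in LL and 50812 in YY. In bulk tissue, fewer cells of a type and less RNA per cell cannot be told apart.

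All 7 enzymes were strongly expressed, from 66.2 FPKM, for FH in LL, to 517 FPKM, for SUCLG1 in YY. CS, which joins acetyl-CoA and oxaloacetate to citrate, had 250 FPKM in DSP and 107 in TP, against 163 in LL and 118 in YY. As deposited, DSP was highest and TP lowest, so the types overlapped. With the libraries rescaled to a common sum over nuclear loci of at least 300 bp, YY was lowest for CS, at 95.8. The CS entry covers a locus of only 2999 bp (chromosome 5, 23162526 to 23165524, positions as deposited; the genome build is not given in the sources used here), and no test was made of whether this entry covers the full gene. IDH2, which makes 2-oxoglutarate and NADPH, had 336 FPKM in DSP and 262 in TP, against 233 in LL and 377 in YY. As deposited, both extremes of IDH2 lay in the introduced type. Under the same rescaling TP was highest for IDH2, at 312, and the highest library was only 1.11 times the lowest. The IDH2 locus is on chromosome 7, from 60539332 to 60549480.

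IDH3A, whose enzyme makes NADH at the same step, had 131 FPKM in DSP and 98.8 in TP, against 82.6 in LL and 100 in YY (chromosome 7, 53297588 to 53330721). As deposited, DSP stood above the other libraries, and TP and YY were close together. With the libraries rescaled to a common sum over nuclear loci of at least 300 bp, TP was highest (118) and YY lowest (81.4). OGDH, the first subunit of the complex that releases the second carbon dioxide of the cycle, had 195 FPKM in DSP and 139 in TP, against 149 in LL and 202 in YY. OGDH varied least of the 7, with the highest library at 1.45 times the lowest. The deposited OGDH locus (chromosome 18, 55408590 to 55660169) is shared by 6 other entries, of which the highest value in any library was 36.2 FPKM.

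SUCLG1, part of the enzyme that makes ATP or GTP directly in the cycle, had 273 FPKM in DSP and 364 in TP, against 171 in LL and 517 in YY (chromosome 3, 63138796 to 63174815). As deposited it varied most of the 7, with YY at 3.03 times LL and both indigenous libraries between these. With the libraries rescaled to a common sum over nuclear loci of at least 300 bp, the span was 2.10 times for SUCLG1 and 2.23 times for CS, and TP was the highest library for SUCLG1. FH, which adds water to fumarate, had 109 FPKM in DSP and 143 in TP, against 66.2 in LL and 128 in YY (chromosome 10, 14852718 to 14879014). As deposited, LL stood low for FH, while the other 3 libraries lay closer together. Under the same rescaling LL was still lowest for FH, at 80.2, but near DSP (93.1) and YY (104), while TP stood high at 170. MDH2, which closes the cycle by making oxaloacetate, had 508 FPKM in DSP and 429 in TP, against 273 in LL and 485 in YY (chromosome 3, 9953217 to 9965969). LL was again the low library for MDH2.

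**Figure D1:**
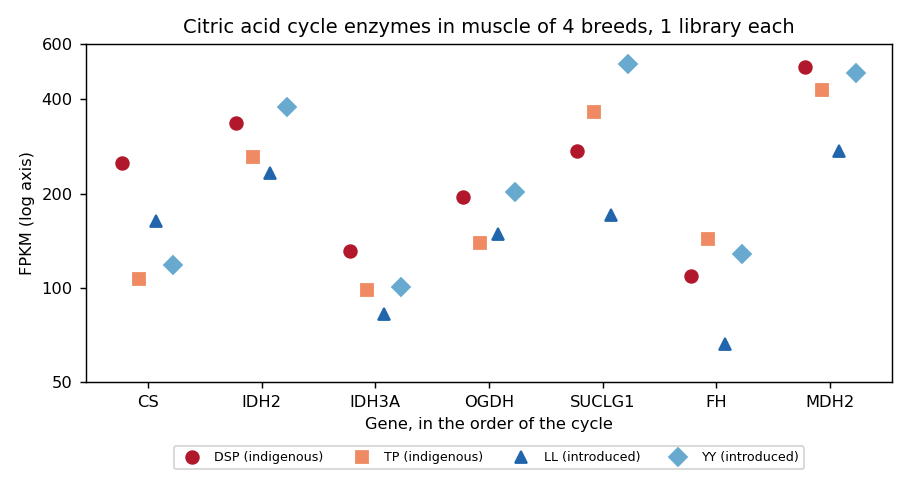
FPKM (log axis) of the 7 citric acid cycle enzymes, ordered along the cycle, with 1 point per library: DSP and TP (indigenous) left of LL and YY (introduced). In these values as deposited, LL is the lowest point for 5 of the 7 genes and TP is the lowest for CS and OGDH. The types overlap in every gene.

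By mean level over the 4 libraries the order was MDH2 (424 ± 106 FPKM, SD, n = 4), SUCLG1 (331 ± 147), IDH2 (302 ± 66.4), OGDH (171 ± 32.0), CS (160 ± 65.1), FH (112 ± 33.3) and IDH3A (103 ± 20.1). The step from IDH2 to OGDH was the only one between neighbours that had the same order in all 4 libraries. MDH2 was above SUCLG1 in 3 of 4 libraries, and each other pair of neighbours was in the stated order in 2 of 4. IDH2 exceeded IDH3A in every library, by 2.57 times in DSP and 2.65 times in TP, against 2.82 times in LL and 3.75 times in YY. The NADP-dependent transcript was thus the more abundant of these isocitrate dehydrogenase transcripts in all 4 breeds.

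The comparison of indigenous with introduced pigs found no member that passed. FH averaged 126 ± 24.1 FPKM in the indigenous type and 97.3 ± 44.0 in the introduced type (SD, n = 2 each), MDH2 averaged 468 ± 55.4 and 379 ± 150, and CS averaged 179 ± 101 and 141 ± 31.8. IDH3A averaged 115 ± 22.6 in the indigenous and 91.5 ± 12.6 in the introduced type. SUCLG1 averaged 319 ± 64.4 in the indigenous and 344 ± 245 in the introduced type, IDH2 averaged 299 ± 52.8 and 305 ± 102, and OGDH averaged 167 ± 39.7 and 175 ± 37.7. Each gap but that of IDH3A was smaller than the larger of its 2 SDs. The IDH3A gap exceeded both SDs, although TP as deposited lay just below YY.

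On the log2(FPKM + 1) scale the indigenous minus introduced difference was 0.43 for FH (SE 0.73), 0.36 for MDH2 (SE 0.84), 0.32 for IDH3A (SE 0.68) and 0.23 for CS (SE 0.79). It was 0.086 for SUCLG1 (SE 0.89), 0.0020 for IDH2 (SE 0.80) and −0.072 for OGDH (SE 0.74), and the limma adjusted p was 0.9999 for each of the 7. These SEs are not of 1 gene alone, since limma draws them towards a trend over all genes. Without that trend they were smaller, from 0.47 for IDH3A to 0.65 for SUCLG1, but each still exceeded the difference of its gene. Limma (two-sided, Benjamini-Hochberg over the 11652 genes averaging at least 1 FPKM) called 0.0% of all genes, and 1.12% had an unadjusted p under 0.05, against 0 of the 7. The members' median difference was 0.23, with 6 of 7 above 0, beside −0.020 over all genes tested. As deposited, the types overlapped in 7 of 7 members, whereas 18.6% of all genes tested did not overlap. With a common sum over nuclear loci of at least 300 bp, the types did not overlap for MDH2 and IDH3A. MDH2 then had 434 FPKM in DSP and 512 in TP, against 331 in LL and 393 in YY. IDH3A had 112 in DSP and 118 in TP, against 100 in LL and 81.4 in YY. With the 50 most abundant genes left out of the sum, MDH2, IDH3A and OGDH did not overlap. The share of all genes that did not overlap was taken from the deposited values only, so these rescaled counts have no background beside them. The members' median difference rested on LL: without LL, it was −0.055. The authors' deposited table pools the breeds of a type. Its fold of indigenous over introduced was 1.24 for MDH2 (p-value 0.00435, false discovery rate 0.118). For CS the fold was 1.27 (p-value 0.0503, false discovery rate 0.861). The authors' false discovery rate was under 0.05 for 0 of the 7, and for 605 of the 18208 genes of the series. Against so low a share, a count of 0 among 7 does not set the members apart. The authors' test, which is not stated, thus called genes where limma called none.

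Each indigenous library was also set beside each introduced one. These comparisons share libraries, so they are not independent. DSP was above LL in 7 of 7 members, with differences from 0.39 to 0.89 and a median of 0.66, beside 0.13 over all genes, of which 61.6% were higher in DSP. Under the nuclear sum the median was 0.16 beside −0.29 over all genes, and OGDH turned, leaving 6 of 7 higher in DSP, where 25.6% of all genes were. TP was above LL in 5 of 7 (median 0.26), where 45.0% of all genes were higher in TP. DSP was above YY in 3 of 7 (median −0.049, 54.8% of all genes higher in DSP), and TP in 1 of 7, FH (median −0.18, 37.2% of all genes higher in TP). This last count turned with scaling. TP was above YY in 7 of 7 members under the nuclear sum (median 0.38, beside 0.25 over all genes, of which 67.2% were higher in TP). With the 50 most abundant genes left out of the sum it was also 7 of 7 (median 0.41, beside 0.27, with 68.9% of all genes higher in TP).

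Within the indigenous type, CS was 250 FPKM in DSP and 107 in TP. With a difference of 1.22 it was the only member at or past 2-fold. CS fell short of 2-fold under both common sums, at 0.74 under the nuclear sum and 0.71 without the 50 most abundant genes. In that comparison 15.6% of all genes were at least 2-fold higher in DSP and 7.76% at least 2-fold higher in TP. OGDH (0.49), IDH3A (0.40), IDH2 (0.36) and MDH2 (0.24) were less than 2-fold higher in DSP, and FH (−0.39) and SUCLG1 (−0.41) were lower in DSP. In all, 5 of 7 were higher in DSP, where 60.5% of all genes were. The median was 0.36 in DSP minus TP, beside 0.20 over all genes. With 1 library per breed there is no replicate check, and no p-value was computed.

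Within the introduced type, SUCLG1 was 171 FPKM in LL and 517 in YY. Its difference of −1.59 was the only one at or past 2-fold, where 16.7% of all genes were at least 2-fold higher in YY and 13.4% in LL. A second member reached 2-fold when the libraries were rescaled, FH (−1.04) under a common median ratio and CS (1.04) under the nuclear sum. FH (−0.94), MDH2 (−0.83), IDH2 (−0.69), OGDH (−0.44) and IDH3A (−0.28) were lower in LL, and CS alone was higher in LL, by 0.46, so 1 of 7 members was higher in LL, where 50.2% of all genes were. The median was −0.69 in LL minus YY. Rescaling the libraries moved the median of all genes from 0.0048 to as far as 0.48 in this comparison, and from 0.20 to as far as −0.22 in DSP minus TP. Set against the median of all genes, the LL minus YY median of the 7 stood between −0.71 and −0.60 under the 4 scalings, and the DSP minus TP median between 0.075 and 0.16.

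**Figure D2:**
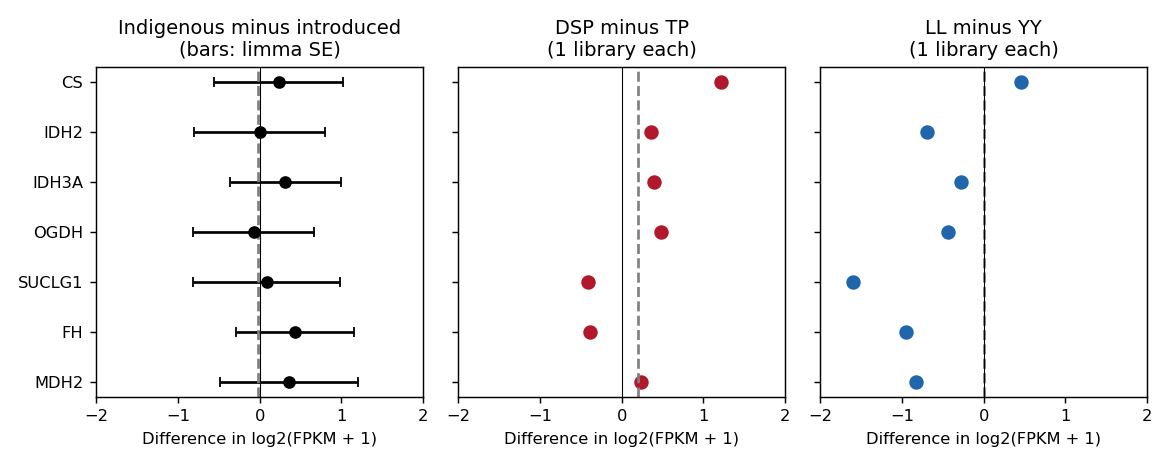
Differences in log2(FPKM + 1) for the 7 enzymes: indigenous minus introduced with limma standard errors (left), DSP minus TP (middle) and LL minus YY (right, 1 library each), with the median of all genes as a dashed line. All 7 standard error bars on the left, which draw on the spread of all genes, cross 0. CS is the rightmost and SUCLG1 the leftmost point in both breed pairs.

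CS and SUCLG1 stood at opposite ends in both breed pairs. Rescaling shifts all genes of a pair by nearly the same amount, so it can turn a sign but hardly the order of the members. CS was higher in DSP than in TP and higher in LL than in YY under all 4 scalings. SUCLG1 and FH were lower in DSP than in TP and lower in LL than in YY under all 4. IDH2, IDH3A and MDH2 turned to lower in DSP than in TP under both common sums, as did OGDH without the 50 most abundant genes. IDH3A turned to higher in LL than in YY under both common sums, as did OGDH under the sum over nuclear loci of at least 300 bp.

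A ratio of transcripts within a library is free of any scaling. CS was 0.916 times SUCLG1 in DSP and 0.293 times in TP, against 0.956 times in LL and 0.229 times in YY. DSP and LL were thus close to each other, as were TP and YY, and the types overlapped fully (0.605 ± 0.440 in the indigenous and 0.593 ± 0.515 in the introduced type, SD, n = 2 each). The highest ratio was 4.18 times the lowest, the widest span among the 21 pairs of members. CS over FH came next, with 2.30 in DSP and 0.747 in TP, against 2.47 in LL and 0.921 in YY. CS took 13.9% of the summed FPKM of the 7 in DSP and 6.92% in TP, against 14.4% in LL and 6.13% in YY. SUCLG1 took 15.2% in DSP and 23.6% in TP, against 15.0% in LL and 26.8% in YY. The CS values in these ratios come from the short entry described above. Short loci took a high share of the FPKM in DSP and LL and a low one in TP and YY, as given above. Their part in these ratios was not tested.

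**Figure D3:**
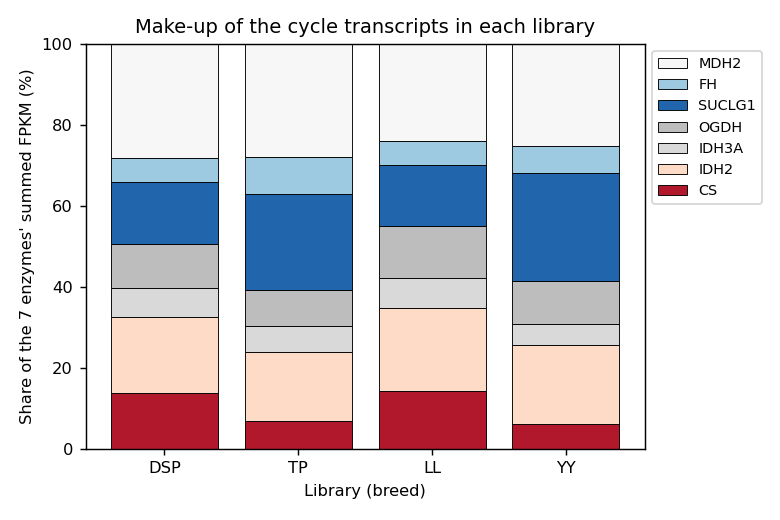
Share of each enzyme in the summed FPKM of the 7 in each library (stacked bars, percent). The CS block is 13.9% in DSP and 6.92% in TP, against 14.4% in LL and 6.13% in YY, while the SUCLG1 block is widest in TP and YY.

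The most even of the 21 member pairs was IDH2 and OGDH, whose ratio was 1.72 in DSP and 1.88 in TP, against 1.57 in LL and 1.87 in YY. These transcripts kept nearly the same proportion in every library, but the pair was picked after the values were seen. In 5 of the 21 member pairs (23.8%) the ratios of the types did not overlap, and in 25 of the 136 pairs of the 17 cycle genes described here (18.4%). One of them was IDH2 over MDH2, at 0.663 in DSP and 0.610 in TP, against 0.852 in LL and 0.778 in YY. With 2 libraries against 2, an exact two-sided permutation test cannot go below p = 0.333.

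A further 10 genes of the cycle were also low in LL as deposited. LL was the lowest library for 5 of the 7 members and for 10 of these 10, while 26.6% of all genes tested were lowest in LL. The summed FPKM of the 10 was 1535 in DSP and 1451 in TP, against 823 in LL and 1573 in YY, and that of the 7 was 1802 in DSP and 1543 in TP, against 1138 in LL and 1928 in YY. Both counts depended on scaling. Under the nuclear sum 4 of the 7 and 5 of the 10 were lowest in LL, and without the 50 most abundant genes 5 of the 7 and 8 of the 10 were. The share of 26.6% is for the deposited values, and the rescaled counts have no such share beside them. All 10 were above 0 in indigenous minus introduced, with a median of 0.34, where 47.6% of all genes tested were above 0, but 0 of 10 passed with limma, and 0 had an unadjusted p under 0.05. As deposited, DLD and SUCLA2 were the 2 whose types did not overlap. Both indigenous libraries were above LL in 10 of 10, where 61.6% of all genes were higher in DSP and 45.0% in TP. Against YY, 5 of 10 were higher in DSP (median −0.043, 54.8% of all genes) and 3 of 10 in TP (median −0.090, 37.2%). The count for TP against YY turned with scaling. It was 9 of 10 under the nuclear sum (median 0.46, beside 0.25 over all genes, of which 67.2% were higher in TP). Without the 50 most abundant genes it was 10 of 10 (median 0.49, beside 0.27, with 68.9% of all genes higher in TP). DSP was above LL in 9 of 10 under both of these sums, where 25.6% and 38.5% of all genes were higher in DSP.

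Partner subunits of 1 enzyme did not always move together. The companions of IDH3A in its enzyme differed from it. IDH3B had 60.4 FPKM in DSP and 91.8 in TP, against 33.1 in LL and 101 in YY. IDH3G had 86.4 FPKM in DSP and 73.8 in TP, against 42.6 in LL and 110 in YY. IDH3A over IDH3B was therefore 2.16 in DSP and 1.08 in TP, against 2.50 in LL and 0.9998 in YY. The IDH3B locus is shared with NOP56 and SNORA51 and the IDH3G locus with SSR4, entries that reached 524 and 413 FPKM in a library, so reads may be split between them.

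OGDH works with DLST, which carries the succinyl group, and DLD, which reoxidises the lipoamide and also serves pyruvate dehydrogenase. DLST had 75.1 FPKM in DSP and 62.0 in TP, against 52.1 in LL and 63.0 in YY. DLD had 192 FPKM in DSP and 144 in TP, against 96.4 in LL and 134 in YY. OGDH over DLD was 1.02 in DSP and 0.969 in TP, against 1.54 in LL and 1.51 in YY, or 0.992 ± 0.0331 in the indigenous and 1.53 ± 0.0254 in the introduced type (SD, n = 2 each). These ratios were narrow within a type and did not overlap, but they were picked after the values were seen, and the exact permutation test cannot pass at this size. Neither gene passed on its own.

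Succinyl-CoA ligase pairs SUCLG1 with SUCLA2, the ATP-forming beta subunit, or SUCLG2, the GTP-forming one. SUCLA2 had 283 FPKM in DSP and 249 in TP, against 144 in LL and 212 in YY, and SUCLG2 had 50.7 FPKM in DSP and 70.3 in TP, against 43.7 in LL and 61.9 in YY. The ATP-forming subunit was the more abundant by 5.58 times in DSP and 3.55 times in TP, against 3.29 times in LL and 3.42 times in YY. SUCLG1 over SUCLA2 was 0.965 in DSP and 1.46 in TP, against 1.19 in LL and 2.44 in YY, so the shared alpha subunit stood highest over its ATP-forming partner in YY.

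Succinate dehydrogenase, which is also complex II of the respiratory chain, showed a similar spread. Its flavoprotein SDHA had 216 FPKM in DSP and 150 in TP, against 110 in LL and 155 in YY. Its iron-sulfur subunit SDHB had 126 FPKM in DSP and 227 in TP, against 63.0 in LL and 294 in YY. SDHB over SDHA was 0.582 in DSP and 1.51 in TP, against 0.575 in LL and 1.89 in YY, which sets the same libraries side by side as CS over SUCLG1. Of the membrane anchors, SDHC had 108 FPKM in DSP and 110 in TP, against 56.0 in LL and 120 in YY, and SDHD had 336 in DSP and 273 in TP, against 183 in LL and 322 in YY.

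**Figure D4:**
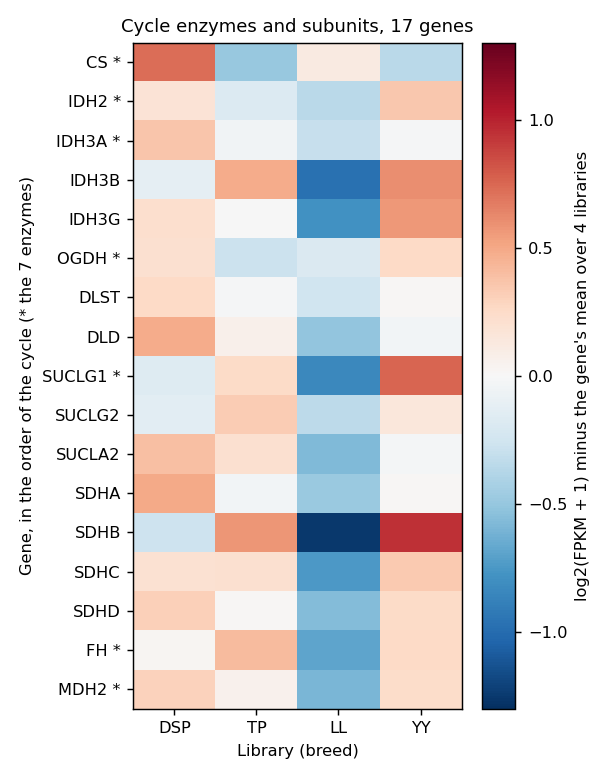
The 17 cycle genes by library, coloured by log2(FPKM + 1) minus the gene's mean over the 4 libraries, with the 7 enzymes starred. The LL column is blue for every gene but CS, and in the YY column SDHB, SUCLG1 and IDH3B are the reddest.

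Genes that feed pyruvate into the cycle were measured in 12 of 13 cases. None of the 12 passed between the types (0 with an unadjusted p under 0.05, median difference 0.22). PDHA1, the catalytic alpha subunit of pyruvate dehydrogenase, had 409 FPKM in DSP and 247 in TP, against 251 in LL and 216 in YY. PDK4, the kinase that switches this complex off when fat is burned, had 692 FPKM in DSP and 21.4 in TP, against 546 in LL and 665 in YY. PDK4 was low in TP alone. PDP1, the phosphatase that switches the complex on, had 44.8 FPKM in DSP and 30.9 in TP, against 27.3 in LL and 12.7 in YY. The types differed by 0.95 (SE 0.63, limma adjusted p = 0.9999).

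Mitochondrial genes outside the cycle were read for comparison. Of the 17 genes for mitochondrial content and its regulators, 0 passed between the types, 0 had an unadjusted p under 0.05, and the median difference was 0.24. As deposited, LL was the lowest library for 11 of the 17, where 26.6% of all genes tested were lowest in LL. This count was not repeated under the other scalings, on which the counts of the cycle genes depended. ATP5B, the catalytic subunit of ATP synthase, had 864 FPKM in DSP and 829 in TP, against 518 in LL and 1123 in YY. UQCRC1, a core subunit of complex III, had 294 FPKM in DSP and 256 in TP, against 140 in LL and 232 in YY. COX5A, a subunit of cytochrome c oxidase, had 258 FPKM in DSP and 774 in TP, against 201 in LL and 713 in YY, more than 2-fold apart in both breed pairs and in the direction of SUCLG1.

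Other genes followed the direction of CS. GABPA, a transcription factor of nuclear genes for mitochondrial proteins, had 102 FPKM in DSP and 11.8 in TP, against 92.0 in LL and 25.5 in YY. TFAM, which packages mitochondrial DNA, had 1344 FPKM in DSP and 43.3 in TP, against 1811 in LL and 55.0 in YY. The TFAM entry spans 693 bp and the GABPA entry 1676 bp, and whether they stand for the whole genes was not tested. PPARGC1B, a coactivator of mitochondrial biogenesis, had 6.32 FPKM in DSP and 2.79 in TP, against 3.00 in LL and 1.55 in YY. The types differed by 0.72 (SE 0.52, limma adjusted p = 0.9999).

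The genes whose pattern was most like the mean of the 7 were found by the root mean square distance of their centred log2(FPKM + 1) values over the 4 libraries, among 6010 named genes averaging at least 5 FPKM. TSFM, a mitochondrial translation elongation factor, was nearest at 0.022, with 19.2 FPKM in DSP and 15.7 in TP, against 12.4 in LL and 19.5 in YY. GOT2, the mitochondrial aspartate aminotransferase, followed at 0.032, with 214 FPKM in DSP and 168 in TP, against 135 in LL and 201 in YY. MRPL50, CRYZ, CLNS1A, RPAP2, ZNF629 and EVI5L came next, at 0.036 to 0.041. Of the 6010 genes, 92 lay within 0.1. Among the members, IDH2 and MDH2 lay nearest to their own mean profile (0.10 and 0.11), and CS (0.51) and SUCLG1 (0.43) farthest.

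As deposited, fast fibre and general skeletal muscle markers were mostly lowest in LL, as 26.6% of all genes were. Slow fibre markers were not. These counts were not repeated under the other scalings. Of 7 measured skeletal muscle markers 5 were lowest in LL, and their summed level was 54915 FPKM in DSP and 67510 in TP, against 25393 in LL and 83725 in YY. The 5 measured fast fibre markers, of 11 listed, were all lowest in LL. Their sum was 35152 FPKM in DSP and 27715 in TP, against 15536 in LL and 42404 in YY. Slow fibre markers, of which 1 of 8 measured was lowest in LL, summed to 4883 FPKM in DSP and 7254 in TP, against 6377 in LL and 10894 in YY. Their part in the low cycle values of LL was not tested.

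Markers of other cells had much lower levels than the muscle genes. The 4 measured adipocyte markers summed to 24.4 FPKM in DSP and 120 in TP, against 31.9 in LL and 66.2 in YY, and leptin (LEP) was listed at 0 in DSP, LL and YY. The 6 fibroblast markers summed to 700 FPKM in DSP and 892 in TP, against 542 in LL and 131 in YY, and the 5 endothelial markers to 64.7 in DSP and 101 in TP, against 78.4 in LL and 36.8 in YY. Smooth muscle markers (5 measured) summed to 52.6 FPKM in DSP and 197 in TP, against 62.3 in LL and 95.9 in YY. Macrophage markers (4 measured) summed to 6.46 FPKM in DSP and 22.7 in TP, against 8.19 in LL and 9.40 in YY. Red blood cell markers (3 measured) summed to 156 FPKM in DSP and 528 in TP, against 171 in LL and 80.9 in YY. None of these sums was lowest in LL.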

How the data were processed

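RNA from 1 muscle library per breed was sequenced, and the FPKM of each library were deposited by the authors. Per the submitters' processing notes reads were aligned with TopHat; the sources used here name no program behind the FPKM, no genome build and no annotation. The table also holds the ratio (fold) of pooled types and a p-value with a false discovery rate, deposited by the authors from a test that is not stated. The number of per-sample columns left unused was 0. Low FPKM fell on no steps of whole reads, so read depth stayed unknown.

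Types were compared with limma 3.58.1 (R 4.3.3, trended prior) on log2(FPKM + 1) over genes averaging at least 1 FPKM, tested on simulated data first. Such differences understate changes of low genes. Breed pairs were set side by side without a test, called at 2-fold. Symbols came from the file for 12322 genes and from the Ensembl gene ID for 1638. The highest-mean entry stood for a symbol. Python 3.11.15 with pandas 2.3.3, numpy 2.4.6 and matplotlib 3.10.9 did the rest.

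From the lists of pyruvate entry, intermediates outside the cycle and mitochondrial content, the rule named the 2 most abundant genes, the 2 with the largest difference between types and any gene 2-fold apart in both breed pairs; 10 further cycle genes and the 8 genes nearest in pattern were named. A gene of the fixed lists is not reported here. The members, lists and ratios were chosen with earlier results of these data known. Alternatives were a pseudocount of 0.1 or 5, other filters, 3 rescalings (common median ratio, common sum over nuclear loci of at least 300 bp, common sum without the 50 most abundant genes), other limma priors, summed entries and leaving out each library.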

Additional observations from a re-analysis of the deposited data

How the results depend on the processing

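Between the types, limma passed 0 genes as reported, 3 with a pseudocount of 0.1, and between 0 and 29 when 1 library was left out, the 29 without YY, where LL alone stands for its type and is assumed to vary like the other; no other alternative passed a gene. None of the 7 enzymes passed under any alternative run. Their median difference ran from −0.055 (without LL) to 0.46 leaving out 1 library. Leaving out 1 library moved CS between −0.38 and 0.84, IDH2 between −0.34 and 0.35, IDH3A between 0.12 and 0.52, OGDH between −0.31 and 0.17, SUCLG1 between −0.71 and 0.88, FH between −0.041 and 0.90, and MDH2 between −0.055 and 0.77. IDH2 turned to −0.027 under the common median ratio and OGDH to 0.066 without the 50 most abundant genes. The median in DSP minus TP was 0.17 under the common median ratio, −0.12 under the sum over nuclear loci of at least 300 bp and −0.15 without the 50 most abundant genes, and the last 2 left 0 members at 2-fold. The median in LL minus YY was −0.12 under the nuclear sum and −0.31 without the 50 most abundant genes, and 2 members were at 2-fold under the common median ratio and under the nuclear sum. Of the further 10 cycle genes 5 were lowest in LL under the nuclear sum. TP was above YY in 7 of the 7 enzymes under both common sums. Of all genes, 67.2% were higher in TP under the nuclear sum and 68.9% without the 50 most abundant genes. These counts by scaling were chosen after seeing the data. The cause of these changes was not tested. No paired analysis was possible because the labels give no replicate numbers. Unknown depth and 1 library per breed limit every value.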

Other observations

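Enzymes that handle cycle intermediates outside the cycle were read in 14 of 15 cases, and 11 entered the test between the types, where 0 passed, 0 had an unadjusted p under 0.05 and the median difference was 0.20. ACLY, which splits citrate into acetyl-CoA for fatty acid synthesis, had 7.02 FPKM in DSP and 23.8 in TP, against 6.27 in LL and 2.27 in YY, a difference of 1.53 (SE 0.70, limma adjusted p = 0.9999). IDH1, the cytosolic NADP-dependent isocitrate dehydrogenase, had 7.42 FPKM in DSP and 16.5 in TP, against 7.74 in LL and 3.65 in YY. SLC25A1, the carrier that exports citrate from mitochondria, had 4.71 FPKM in DSP and 12.3 in TP, against 2.26 in LL and 6.90 in YY. TP was the highest library for all 3 of these genes. MDH1, the cytosolic malate dehydrogenase, had 143 FPKM in DSP and 120 in TP, against 92.0 in LL and 105 in YY.

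The mitochondrial forms of 3 enzymes exceeded their cytosolic counterparts in every library, by amounts that differed between enzymes. MDH2 over MDH1 was 3.55 in DSP and 3.59 in TP, against 2.97 in LL and 4.61 in YY. GOT2 over GOT1 was 1.97 in DSP and 1.42 in TP, against 2.32 in LL and 2.41 in YY. IDH2 over IDH1 spanned the most, with 45.3 in DSP and 15.9 in TP, against 30.1 in LL and 103 in YY, a 6.52-fold range in which IDH1 varied more than IDH2.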
